A study of Mus musculus with 2 samples.

Results

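The rows of the gene count table that stand for microRNA loci were compared between compressed and control OCCM-30 cells, an immortalized wild type mouse line with properties of cementoblasts. A row was taken when its gene type was miRNA or Precursor_miRNA and its raw count was at least 25 in either library, which held for 108 of 1140 microRNA rows and of 44792 rows in all. Of these 108, 73 had the type miRNA and 35 the type Precursor_miRNA. The remaining microRNA rows had 1 to 24 counts (519 rows) or 0 in both libraries (513 rows). The rows were chosen by the raw counts in these same libraries, so the ratios below are descriptions with no test.

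The series held 2 RNA sequencing libraries, 1 from cells under compressive force and 1 from control cells. Both came from OCCM-30 cells grown in serum-containing medium, and neither the magnitude nor the length of compression is stated in the labels. The libraries were of total RNA made by a standard Illumina protocol, and no selection of short RNA is named. With 1 library per group, every ratio compares these libraries and has no replicate check. The compressed library held 24296292 counts and the control library 25049919. In bulk RNA, fewer cells of a kind and less RNA per cell cannot be told apart. Of 10 osteoblast and cementoblast markers, 8 had at least 1 CPM (counts per 1000000 library counts, after scaling), among them Col1a1, Runx2 and Sp7, while Ibsp had 0 counts in both libraries and Bglap 12 against 11. Lists of macrophage and osteoclast, endothelial and epithelial markers each summed to between 1.84 and 10.1 CPM in either library. At least 1 CPM was reached by 3 of 7, 2 of 5 and 1 of 6 of them. Ptprc, Kdr and Epcam were at 0 in both. Cd68 had 150 compressed and 143 control counts, more than Sp7 with 99 and 98, and Vwf had 84 and 70.

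A microRNA is cut in steps from a longer RNA. In the nucleus, the microprocessor of Drosha and Dgcr8 frees a hairpin from a primary transcript. Exportin 5 carries the hairpin out, Dicer trims it to a short duplex, and an Argonaute protein holds the mature strand, whose seed near the 5′ end pairs with target mRNAs. Many hairpins lie in introns of protein-coding genes and are transcribed with them. Some, called mirtrons, are freed by splicing in place of Drosha. A mature strand is too short for a usual RNA sequencing library, so reads on these rows are read here as host or primary transcript signal and not as mature microRNA.

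Sequences are given for loci with the largest differences, the most counted locus and families that share a seed. They come from RefSeq (GRCm38.p6), which matched 94 of the 108 loci to 152 mature sequences and 89 loci to a hairpin. Capitals mark the mature strands of each hairpin. The annotation behind the counts is not stated, so the counted stretch may differ from the hairpin shown. Mir6955 lies at chr15:78891840-78891913 on the + strand, Mir5125 at chr17:23823291-23823369 (+), Mir7061 at chr7:130908268-130908335 (+), Mir6896 at chr1:34117359-34117431 (+), Mir106b at chr5:138165737-138165818 (-) and Mir5121, the most counted, at chr7:45126918-45126991 (-).
Mir6955: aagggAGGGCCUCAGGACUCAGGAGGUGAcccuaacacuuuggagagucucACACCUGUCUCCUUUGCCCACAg
Mir5125: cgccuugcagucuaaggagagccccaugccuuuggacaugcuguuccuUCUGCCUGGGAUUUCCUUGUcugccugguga
Mir7061: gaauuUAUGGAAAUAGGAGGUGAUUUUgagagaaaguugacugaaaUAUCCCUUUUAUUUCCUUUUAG
Mir6896: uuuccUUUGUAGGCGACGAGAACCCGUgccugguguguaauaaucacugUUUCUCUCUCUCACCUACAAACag
Mir106b: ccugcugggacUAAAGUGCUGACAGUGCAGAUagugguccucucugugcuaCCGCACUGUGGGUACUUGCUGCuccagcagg
Mir5121: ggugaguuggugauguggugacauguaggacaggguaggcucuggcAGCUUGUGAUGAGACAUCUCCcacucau

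Among the mature strands, capitals mark the seed (bases 2 to 8). The largest group with a shared seed held 4 loci of the let-7 family, known for restraining growth genes in differentiated cells. Another group joined miR-214-3p, from a locus linked to skeletal development, with miR-761. The remaining shared seeds joined Mir6911 with Mir7028 and Mir6993 with Mir705 on the 5′ strand, and Mirlet7b with Mirlet7f-1 on the 3′ strand.
let-7b-5p: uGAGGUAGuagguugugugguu
let-7d-5p: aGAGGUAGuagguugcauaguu
let-7e-5p: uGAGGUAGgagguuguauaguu
let-7f-5p: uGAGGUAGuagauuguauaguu
miR-214-3p: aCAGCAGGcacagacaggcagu
miR-761: gCAGCAGGgugaaacugacaca

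Most microRNA rows had few reads and lay near a ratio of 1. Summed over the 108 rows, compressed cells gave 17628 counts and control cells 18153, which is 0.0726% and 0.0725% of each library. Of the 108, 54 had a higher count between 25 and 49, 26 between 50 and 99, and 28 had 100 or more. The median count was 41.5 under compression and 39 in the control. The median log2 ratio of compressed over control was 0.01, with a lower quartile of -0.38 and an upper quartile of 0.52, beside a median of -0.01 over all 14001 genes above 1 CPM. Ratios stood above 1 for 55 rows and below 1 for 53. The rows thus split almost evenly between the directions.

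A row was called when it had 1 CPM or more in either library, at least a 2-fold ratio in either direction (with 0.5 added to each count) and a 95% interval for counting error that excluded 1. By this rule 12 rows were called higher and 4 lower, from 105 that passed the CPM minimum. That is 11.4% and 3.81%, beside 3.06% called higher and 0.929% called lower over all genes, and 2.49% and 0.51% over mRNA rows. The called rows had a median higher count of 41, and shares were therefore set beside those of other rows at like depth. In the band of 25 to 49 counts, 6 of 54 microRNA rows were called higher and 3 lower, and 11.7% and 6.03% of the 1327 other rows in that band. From 50 to 99 counts, 5 of 26 were called higher and 1 lower, beside 7.75% and 2.24% of 1252 other rows. From 100 to under 500 counts 1 of 23 was called, beside 2.56% higher and 0.427% lower among 3277 other rows. None of the 5 rows with 500 or more counts was called, beside 1% called higher and 0.0495% called lower among 8080 other rows.

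**Figure D1:**
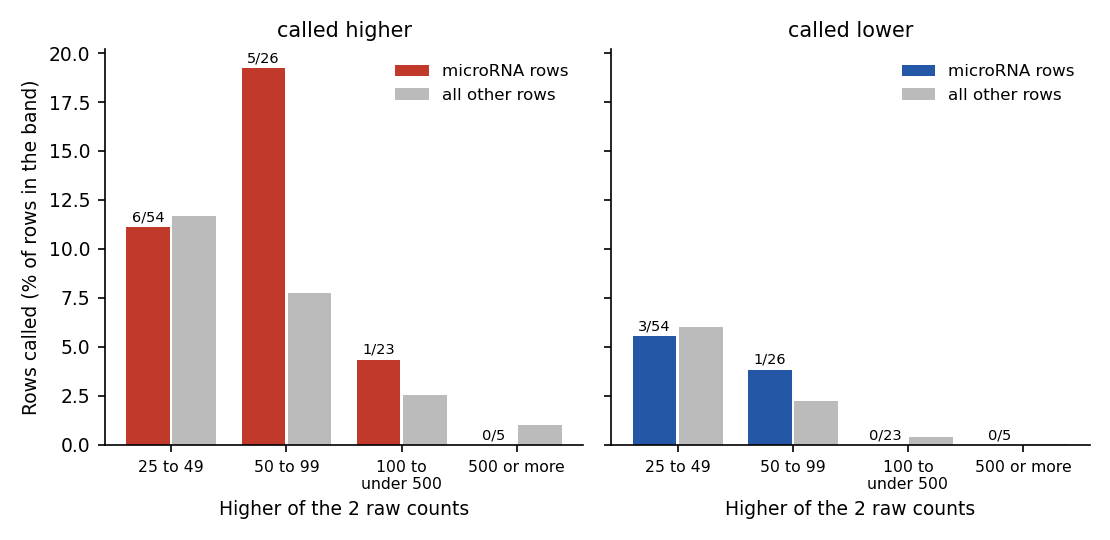
Share of rows called higher (left) and lower (right), in percent of the rows in each band of the higher raw count, for microRNA rows (coloured, with the number called over the number in the band) and for all other rows (grey). Among other rows both shares fell with each band, while among microRNA rows the share called higher was larger from 50 to 99 counts (5 of 26) than from 25 to 49 (6 of 54).

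**Figure D2:**
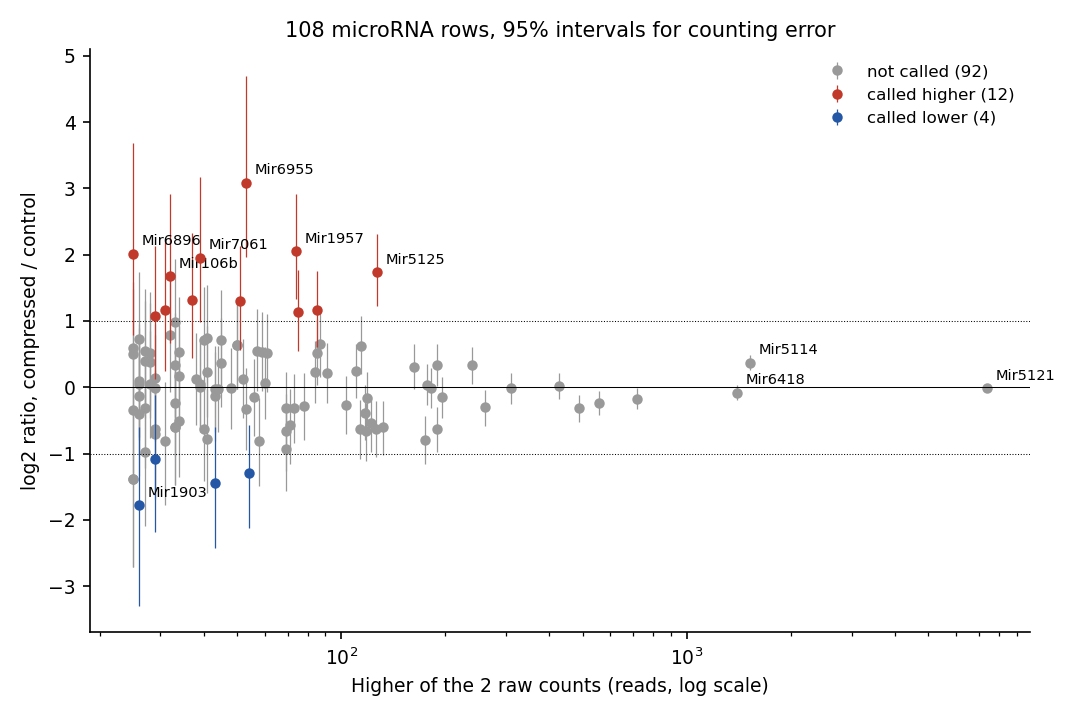
Log2 ratio of the compressed over the control library (vertical axis) for each of the 108 microRNA rows against the higher of its raw counts (log scale), with 95% intervals for counting error. The wide intervals and all but 1 of the 16 called rows lie below 100 counts, and the most counted row, Mir5121, lies at -0.02.

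The called rows with higher counts under compression were mostly loci known by number alone. Mir6955 had 53 compressed and 6 control counts, a ratio of 9.12 (95% interval 3.92 to 25.9). This was the highest ratio among the 108 rows, and its locus lies within Gga1, a gene for an adaptor of Golgi sorting. Mir1957 had 74 counts against 18, which gave a ratio of 4.24 (2.51 to 7.55), and was the only one of the 108 matched to no position here. Mir6896, within the cytoskeletal linker gene Dst, had 25 counts against 6, a ratio of 4.30 (1.72 to 12.8). In each of these the control count was the low one, from 6 to 18 reads.

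Mir5125, within the splicing factor gene Srrm2, was the only called row with over 100 counts, at 127 against 39 and a ratio of 3.36 (2.33 to 4.94). Mir7061, within Plekha1, had 39 counts against 10, a ratio of 4.02 (1.97 to 9.04). Mir106b, a locus of the miR-17 family within the replication helicase gene Mcm7, had 32 counts against 10, which gave a ratio of 3.30 (1.58 to 7.53). The miR-17 family is known for its part in cell cycle progression. The other 6 rows called higher had ratios between 2.14 and 2.55. Mir6911 had 37 counts against 15, Mir3112 51 against 21, and Mir7658 31 against 14. Mir6960 had 85 counts against 39, Mir6965 75 against 35, and Mir761 29 against 14.

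Only 4 rows were called lower, all with fewer than 60 counts in the control library. Mir1903 had 7 compressed and 26 control counts, a ratio of 0.278 (0.102 to 0.657). Mir1b had 15 counts against 43, a ratio of 0.360 (0.186 to 0.661). It lies within the spans of Mib1 and of the noncoding Mir133a-1hg, with strands not given. Mib1 had 1979 counts against 1964, and Mir1b lay below it by a log2 difference of -1.50 (-2.34 to -0.66). The span of Mir1b also overlaps that of Mir1a-2, a locus of the muscle microRNA miR-1, whose own row had 0 counts in both libraries. Without a stated strand setting, reads of Mir1b and Mir1a-2 cannot be told apart. Mir5119, within the kinase gene Cdk12, had 21 counts against 54, a ratio of 0.401 (0.230 to 0.676). Mir343 had 13 counts against 29, a ratio of 0.463 (0.221 to 0.918), with an upper limit close to 1. Mir6902 and Mir365-2 each had 9 counts against 25, which gave a ratio of 0.371 (0.153 to 0.823), and fell just under the CPM minimum. Mir6975, with 19 against 25, was the remaining row under that minimum.

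**Figure D3:**
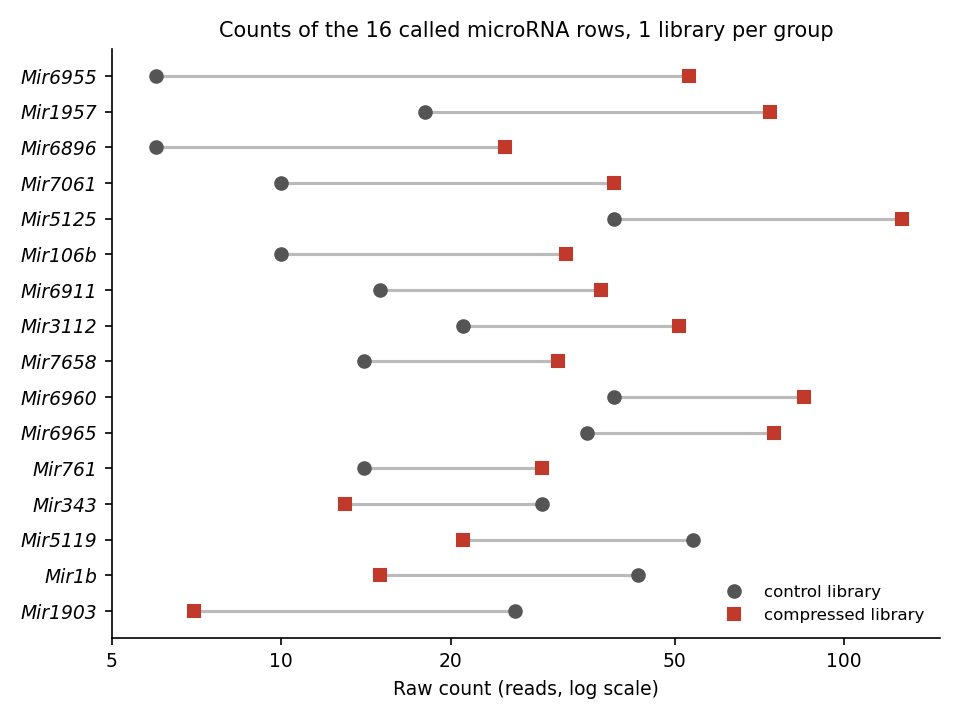
Raw counts (log scale) of the 16 called microRNA rows in the control library (grey circles) and the compressed library (red squares), joined by a line and ordered by ratio. Among rows called higher, control counts run from 6 to 39, and the widest gap is that of Mir6955, from 6 to 53.

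The count limit of 25 divided rows of nearly equal depth. The 6 rows with a higher count of exactly 25 had ratios from 0.371 to 4.30, and the 7 rows with a higher count of 24 had ratios from 0.430 to 2.06.

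Mir210, the best-known microRNA induced by low oxygen, was not among the 108 rows. It had 5 compressed and 0 control counts, and with 0 control counts up to 0.12 CPM is allowed there. Of 11 hypoxia response genes in the table, 6 were called higher and 0 lower, with a median log2 ratio of 1.52 over the 10 above 1 CPM. Among these the mitophagy receptor Bnip3 had 6775 counts against 1054. This list is given for context only, since its rise in these libraries was already known when the list was written.

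The most counted rows showed small ratios with narrow intervals. Mir5121 had 7077 compressed and 7390 control counts, a ratio of 0.988 (0.956 to 1.02). Per 100 bases of its hairpin this was 394 CPM against 398 CPM. It lies within the ribosomal protein gene Rpl13a, a host of several small nucleolar RNAs (snoRNAs), and its span overlaps that of Snord33, which had 81 counts in each library. Mir5114, within the fatty acid desaturase gene Scd2, had 1523 counts against 1216, or 103 CPM against 79.5 CPM per 100 bases, and a ratio of 1.29 (1.20 to 1.39). Mir6418, within the G protein subunit gene Gnb2, had 1285 counts against 1401, 46.0 CPM against 48.6 CPM per 100 bases. These 3 rows held 56.1% of the counts of the 108 rows under compression and 55.1% in the control.

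Next in depth stood Mir3064 with 618 counts against 718, a ratio of 0.888 (0.796 to 0.990), and Mir686, within the proteasome gene Psmb5, with 459 against 558. Mir719 had 379 counts against 488, a ratio of 0.801 (0.699 to 0.918). Mir546 with 418 against 426, Mir704 with 297 against 309 and Mir3082 with 175 against 182 had intervals that included 1. Mir1966 had 204 counts against 260, Mir5046 239 against 196 and Mir1892 171 against 196. Of the 28 rows with 100 or more counts, 27 lay within 2-fold. Over all 108 rows, 21 had an interval above 1 (19.4%) and 23 below 1 (21.3%), beside 26.3% and 28.6% of all genes above 1 CPM, while 64 included 1. These shares were not matched for depth. Intervals are wider at low counts, and 80 of the 108 rows had under 100 counts, so the lower shares are not a result about microRNA rows.

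Hosts were sought by span. In the RefSeq table, 103 of the 107 loci with a position lay inside the span of another gene. For 80 of them a containing gene was on the same strand, for 76 of these a protein-coding one. For 22 the strand of the locus or of the gene was not given in the tables used, and Mir568, the last of the 103, lay on the strand opposite to the immune receptor gene Tigit. Exon positions were not used, so intron and exon were not told apart. Reads of a locus may also be counted in its host, and the labels do not state how such reads were handled.

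Of 77 same-strand hosts above 1 CPM, 1 was called higher and 1 lower, with a median log2 ratio of -0.06. Over all genes 3.06% were called higher and 0.929% lower, so the hosts' calls were few, as they were among genes in general. Over the 80 pairs of a row and such a host, the row had a median of 4.17% of its host's count under compression and 4.42% in the control. The difference of log2 ratios, row minus host, had a median of 0.04. Its interval for counting error included 0 for 53 pairs, lay above 0 for 18 and below 0 for 9. Across the 80 pairs the log2 ratios of row and host had a Pearson r of 0.31 and a Spearman rho of 0.34. Over the 23 pairs with 100 or more counts these were 0.20 and 0.47. Row and host come from the same libraries and may share reads, and several rows share a host, so these values only describe the spread.

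Of the 16 called rows, 14 had a same-strand host above 1 CPM, and for 11 of them the interval of the difference excluded 0. Since the rows were selected for their ratio, this count is a description and supports nothing about hosts. Gga1 had 1255 compressed and 1163 control counts, and Mir6955 lay 2.93 above it on the log2 scale (1.75 to 4.11). Reads of Mir6955 came to 4.22% of the Gga1 count under compression and 0.516% in the control. Dst had 1184 counts against 1367, and Mir6896 lay 2.18 above it (0.93 to 3.43). Srrm2 had 43533 counts against 40851, and Mir5125 lay 1.60 above it (1.08 to 2.11). Plekha1, with 28 counts against 44, was counted less than Mir7061 in the compressed library, and the row lay 2.55 above it (1.36 to 3.75). These hosts lay within 2-fold, and the rows were chosen for lying outside it.

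For the rows with smaller ratios the picture was similar. Troap, a spindle gene, had 979 counts against 797, and Mir6960 lay 0.82 above it (0.26 to 1.38). The RNA-binding gene Dazap1 had 1229 counts against 960, and Mir6911 lay 0.92 above it (0.06 to 1.78). Cstf2, a gene of mRNA 3′ end formation, had 2395 counts against 2461, and Mir3112 lay 1.30 above it (0.57 to 2.03). Klhl17 had 132 counts against 156, and Mir7658 lay 1.36 above it (0.40 to 2.32). Cdk12 itself had 6836 counts against 9051, and Mir5119 lay 0.94 below it, with a difference of -0.94 (-1.66 to -0.22). The differences of Mir761 from the peptidase gene Nrd1, at 0.86 (-0.05 to 1.78), and of Mir343 from the DNA repair helicase gene Ercc2, at -0.85 (-1.82 to 0.11), had intervals that included 0.

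**Figure D4:**
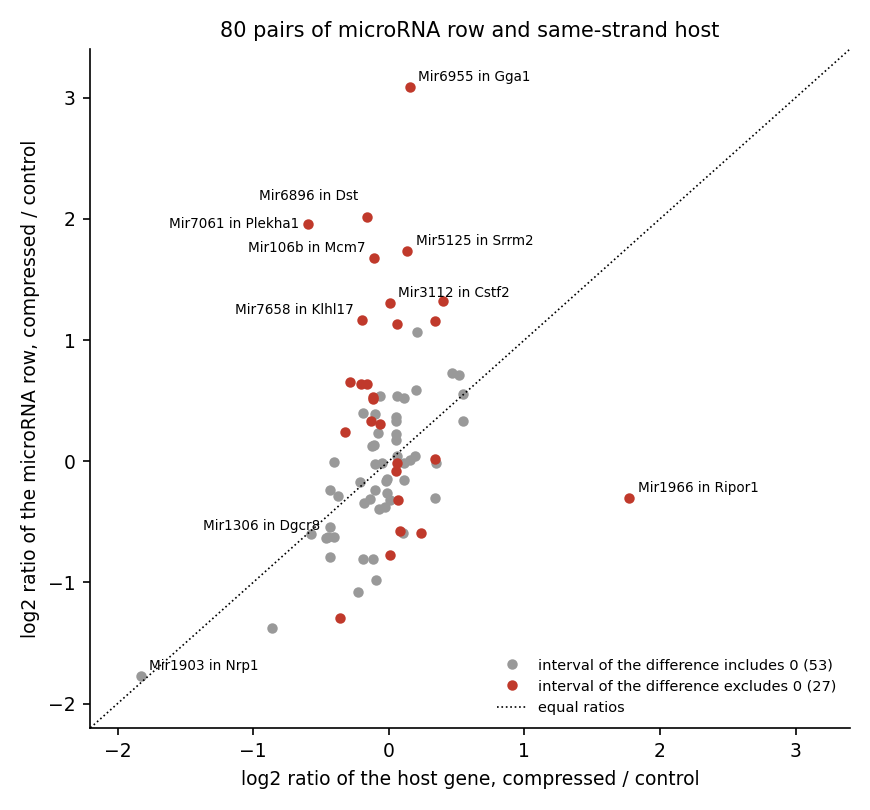
Log2 ratio of each microRNA row (vertical axis) against that of its same-strand host gene (horizontal axis) for 80 pairs, with the dotted line of equal ratios. Hosts gather near 0 while rows spread further; red points are the 27 pairs whose counting interval of the difference excludes 0, led by Mir6955 in Gga1.

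Mir1903 and its host had nearly equal counts. Nrp1, a co-receptor for semaphorins and vascular growth factors, had 7 counts against 27 and was the host called lower, and Mir1903 had 7 against 26. The count of Mir1903 was 100% of that of Nrp1 under compression and 96.3% in the control. Both rows may therefore hold the same reads. The locus starts 168 bases downstream of an annotated Nrp1 start. Mir1966 and its host parted. Ripor1, listed in the table under its older symbol Fam65a, had 31 counts against 9 and was the host called higher, at a ratio of 3.55 (1.65 to 8.49). Mir1966 had several times more counts than that host in both libraries, and lay below it by a log2 difference of -2.08, with an interval below 0.

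Among deeper rows, several had ratios near those of their hosts. Of the 23 same-strand pairs with 100 or more counts, the interval of the difference included 0 for 14. Mir5114 and Scd2 had ratios of 1.29 and 1.33, although the strand of Scd2 is not given in the tables used. Mir763 had 84 counts against 132, which gave a ratio of 0.657 (0.493 to 0.870), and its host Hmga2, a chromatin architecture gene and a classic let-7 target, had 870 against 1337, a ratio of 0.671 (0.616 to 0.732). Mir3535 had 118 counts against 189 in Ncl, the nucleolin gene, with ratios of 0.644 and 0.727. Others departed from the host by less than 2-fold. Mir719 lay below the nucleoporin gene Nupl1 by a log2 difference of -0.39 (-0.63 to -0.15), and Mir546 below Ctdsp2 by -0.32 (-0.57 to -0.08). Mir7-1, a locus of the neuronal and endocrine microRNA miR-7, had 87 counts against 57 within Hnrnpk and lay 0.94 above it (0.45 to 1.42). Mir1291 overlapped Snora34, a snoRNA with 60 counts against 42, and lay 0.56 above its host Kansl2 (0.15 to 0.97).

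Loci that lie close together on a strand are set side by side, without an interval for the difference between them. Mir106b sits within 333 bases of Mir93 and Mir25, whose rows had 7 counts against 6 and 22 against 15. Their ratios of 1.20 (0.346 to 4.34) and 1.51 (0.750 to 3.14) had intervals that included 1. Both intervals overlapped that of Mir106b, 1.58 to 7.53. Mcm7 had 1263 counts against 1405, and Mir106b lay 1.78 above it on the log2 scale (0.77 to 2.79). Mir6965 and Mir5134 lie 6280 bases apart in the cyclin F gene Ccnf, with 75 counts against 35 and 39 against 39. Ccnf itself had 2297 counts against 2268, close to the ratio of Mir5134, while Mir6965 lay 1.07 above Ccnf (0.49 to 1.65).

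Mir125a and Mirlet7e lie 368 bases apart within the span of Spaca6. Mir125a, a microRNA linked to blood cell and immune regulation, had 98 counts against 175, a ratio of 0.578 (0.447 to 0.744), Mirlet7e had 27 against 33, and their neighbour Mir99b, under the count limit, had 19 against 16. Spaca6 had 824 counts against 1148, which gave a ratio of 0.741 (0.676 to 0.811). The difference of Mir125a from Spaca6, at -0.36 (-0.73 to 0.02), had an interval that included 0.

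Mir199a-2 and Mir214 are cut from Dnm3os, a noncoding RNA opposite to Dnm3 that is known for its role in skeletal growth. Mir199a-2 had 33 counts against 27, Mir214 57 against 40 and Dnm3os 37 against 26. All 3 had ratios from 1.26 to 1.47 with intervals that included 1. None of the 3 was called.

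The let-7 family, with miR-98, had 14 rows, of which 4 reached the count limit. Together the 14 rows held 173 compressed and 146 control counts. Mirlet7d had 32 counts against 19, a ratio of 1.74 (0.956 to 3.25), while Mirlet7f-1, 1715 bases away, had 23 against 26. Mirlet7b had 41 counts against 25, a ratio of 1.69 (1.005 to 2.90). Its neighbour Mirlet7c-2, just under the limit, had 23 against 17. None of the family was called, and the other rows outside the limit had at most 12 counts. Among regulators of let-7, Lin28a, the protein that blocks its maturation in stem cells, had 0 counts in both libraries and Lin28b had 3 against 1.

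Outside every gene span lay 4 loci, Mirlet7d, Mirlet7f-1, Mir365-2 and Mir7652. Mir7652 had 72 counts against 118, a ratio of 0.630 (0.463 to 0.851). It lies 338 bases from the stress granule gene G3bp1 on the same strand, which had 195 counts against 327 and a ratio of 0.615 (0.513 to 0.737).

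Hairpin ends were compared because a mirtron hairpin ends at a 3′ splice site, with the letters AG. Among the 89 members with a hairpin in RefSeq, 26 ended in AG (29.2%), beside 238 of 1005 mouse hairpins in the table (23.7%). Of the 11 called higher with a hairpin, 6 ended in AG, as the printed ends of Mir6955, Mir7061 and Mir6896 show. The others were Mir6911, Mir6960 and Mir6965. Of the 76 not called, 20 ended in AG (26.3%). Both of the 2 called lower with a hairpin ended in other letters. Of the 89, 2 both began with GU and ended in AG, the pattern of a hairpin that fills an intron (2.25%), beside 30 of 1005 in the table (2.99%). This feature was looked at after the ratios were seen, and 2 letters at an end do not mark a splice site. GC content had a Spearman rho of 0.04 with the log2 ratio over these 89 rows.

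Genes of the microRNA pathway showed no called member among the 39 of 42 listed that lay above 1 CPM. Calls were also rare in general, at 3.06% higher and 0.929% lower over all genes, and 1% and 0.0495% over other rows with 500 or more counts. In the nuclear steps, 8 of 10 genes had an interval below 1 and 0 above, with a median log2 ratio of -0.24. Over the 5861 other rows with 1000 or more counts, 41.9% had an interval below 1 and 30.1% above, with a median of -0.04. Dgcr8, the RNA-binding partner in the microprocessor, had 2470 compressed and 3470 control counts, a ratio of 0.735 (0.697 to 0.774). Srsf3, a splicing factor that aids hairpin recognition, had a ratio of 0.741 (0.714 to 0.769). Exportin 5 (Xpo5) had 4219 counts against 5599, a ratio of 0.778 (0.747 to 0.809). Drosha, the nuclease, had 5603 against 5948, a ratio of 0.972 (0.937 to 1.01), and the helicase Ddx17 had the highest of the 10 at 1.02.

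In the cytoplasm, Dicer1, which cuts the hairpin, had 2868 counts against 3968, which gave a ratio of 0.746 (0.711 to 0.783), and its partner Tarbp2 had 0.795 (0.724 to 0.873). Prkra, another Dicer partner, had 1.16 (1.01 to 1.32). All 4 Argonaute genes had intervals above 1. Ago2, the slicing Argonaute, had 7731 counts against 6714, which gave a ratio of 1.19 (1.15 to 1.23), and Ago4 had 368 against 236, a ratio of 1.61 (1.36 to 1.90). Argonautes and silencing effectors together had a median of 0.06 over 18 genes, with 10 intervals above 1 and 6 below. The deadenylase gene Pan2 had a ratio of 1.31 (1.20 to 1.43), and the lowest were Cnot1, a scaffold of the deadenylase complex, at 0.840 and the decapping gene Dcp1a at 0.845. The uridylyl transferase gene Zcchc11, which tails let-7 precursors, stood at 4788 against 3519 counts (ratio 1.40, 1.34 to 1.47), and Zc3h12a, a nuclease of precursors, 1.20 (1.02 to 1.41). Regulators of let-7 and precursor decay had a median of 0.03 over 7 genes, with Zswim8 at 0.929 and Hnrnpa1 at 1.02 the lowest.

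**Figure D5:**
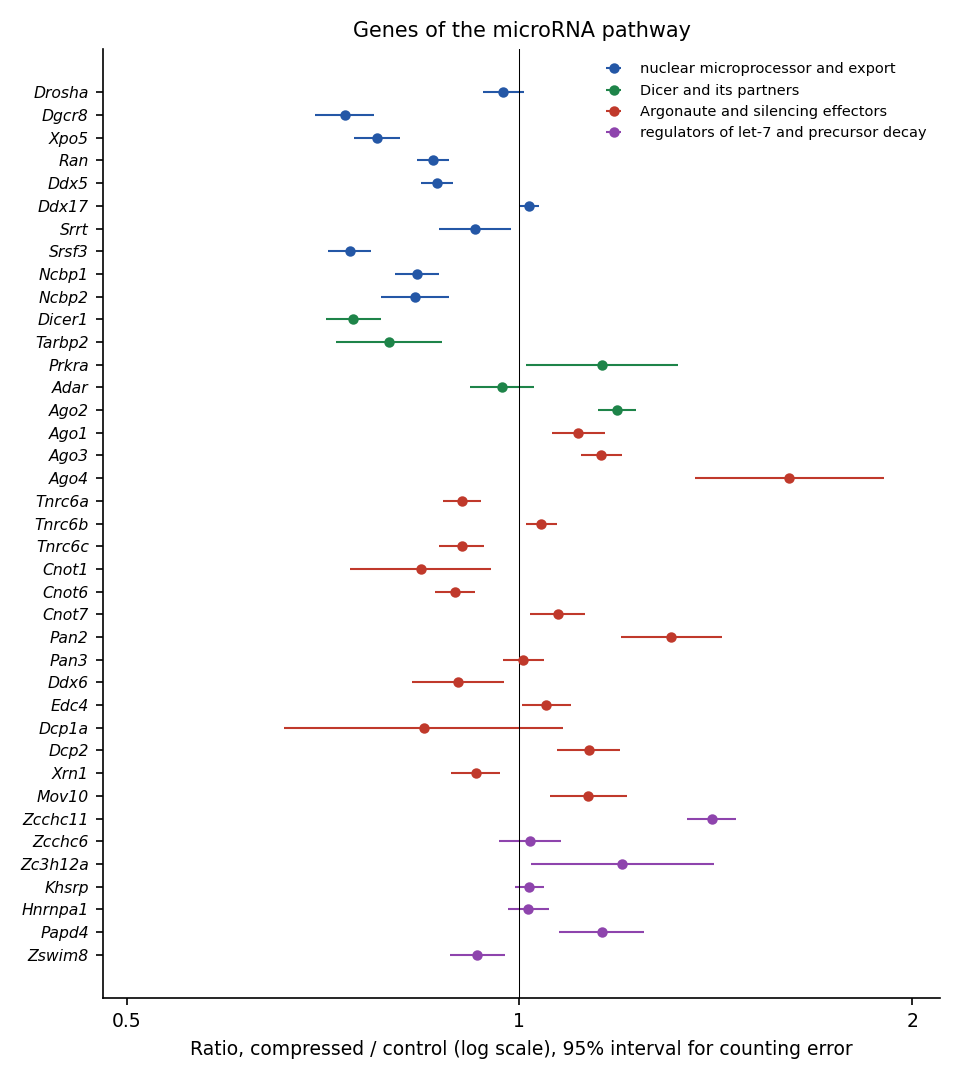
Ratio of the compressed over the control library (log scale) with 95% intervals for counting error for 39 genes of the microRNA pathway above 1 CPM, coloured by step, with Ago2, which stands in both lists, coloured as a Dicer partner. Every gene lies between 0.5 and 2; Dgcr8, Xpo5 and Dicer1 lie below 1, and Ago1 to Ago4 above it.

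Some pathway genes are themselves hosts of members. Mir1306 lies within Dgcr8 (chr16:18284239-18284317, - strand), whose own mRNA is known to carry hairpins that the microprocessor cuts. It had 71 counts against 113, a ratio of 0.648 (0.475 to 0.880), close to that of Dgcr8, with a difference of -0.18 (-0.61 to 0.26). Mir3064 lies within the helicase gene Ddx5, which had 8833 counts against 10548, and the ratios were 0.888 and 0.864. Mir5113 lies within the silencing gene Tnrc6b, with 84 counts against 74. Mir7036 lies within Srrt, with 61 counts against 44 and a difference of 0.63 (0.06 to 1.19). Mir7073, with 26 counts in each library, lies within Cnot1.

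Host genes of microRNAs known from textbooks, a few of which also host members, were looked at as a list. Of 30 in the table, 23 lay above 1 CPM, with a median log2 ratio of 0.03, 0 called higher and 1 lower. Over all genes above 1 CPM 3.06% were called higher and 0.929% lower, so calls were also rare in general. The one called lower was 5830416P10Rik, a noncoding RNA also named Mirt1, with 34 counts against 72. It stood in the list as written, and whether it hosts a microRNA was not checked here. The highest ratios were those of Dnm3os and of Sfmbt2, a Polycomb-related gene that hosts a large microRNA cluster, with 334 counts against 241. Vmp1, whose locus overlaps miR-21, had 38 counts against 48 and Ctdspl 126 against 159. Mir17hg, the host of the miR-17 cluster, had 0 counts against 3, and Meg3, Rian and Mirg were at 0 in both.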

How the data were processed

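The authors deposited whole-number read counts per gene row, with a symbol and a gene type, for 1 compressed and 1 control library. Per the submitters' processing notes, HISAT2 and GRCm38 were named, with no roles given. The counter, annotation version, strand setting and treatment of reads with several alignments or overlapping genes are not stated per the labels, so values of loci inside other genes are uncertain. TMM factors (edgeR 4.0.16, R 4.3.3) over all rows gave effective library sizes, CPM and log2 ratios with a prior count of 0.5. Ratios have exact 95% conditional binomial (Clopper-Pearson) intervals, for counting error only, since reads are not independent molecules. Where a count was 0, the limit allowed was 3 counts. No test was made, as 1 library per group leaves no residual degrees of freedom. Row-host differences have intervals from a normal approximation on log counts. The calling code was tested on simulated data with counting noise only, for genes that averaged at least 50 counts over the libraries. Most called rows lay below that depth, which the simulation did not cover. Members and lists were chosen with earlier results of these data known. Named rows were all called rows, the 12 most counted, the 6 highest and 6 lowest ratios and neighbours within 10 kb. Hosts of these, called genes of each list and its 2 highest and 2 lowest were also drawn on, but not all of them were named. Other rows named were chosen after their values were seen. Positions and hosts came from RefSeq (GRCm38.p6). Alternatives were other scalings (DESeq2 1.42.0 size factors among them), a larger prior count, and other limits.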

Additional observations from a re-analysis of the deposited data

How the results depend on the processing

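No paired analysis was possible because each group has 1 library, and leaving out a library leaves no comparison. Log2 ratios of the 37 microRNA rows named by rule were recomputed under other settings. These were total-count scaling, DESeq2 size factors, upper-quartile factors and a prior count of 5. All 37 stayed within their counting intervals. The scalings moved the median of all genes by only -0.0012, -0.013 and 0.011 in that order. Shifts this small could not leave the intervals, so for the scalings that outcome was fixed in advance. Other rows named in the text were not checked in this way. The calls themselves, 12 higher and 4 lower, did not all hold. A prior count of 5 left 10 higher and 3 lower, with Mir761 (0.88), Mir7658 (0.97) and Mir343 (-0.87) then under 2-fold on the log2 scale. With DESeq2 size factors, and with no CPM minimum, 12 were higher and 6 lower. The counts were 1 higher and 0 lower at a CPM minimum of 5. With rows of at least 50 counts they were 6 and 1, and with at least 100 counts 1 and 0, with a median log2 ratio of -0.16. With a fold limit of 1.5, 17 rows were called higher and 15 lower, and 1 pathway gene higher. Shares over all genes are not given for these alternatives, so the counts show only how the calls depend on the limits. Of the 73 rows of type miRNA, 8 were called higher and 1 lower. Of the 35 rows of type Precursor_miRNA, 4 were called higher and 3 lower. Depth limits these results: 80 of the 108 rows had under 100 counts.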
